A study of Mus musculus with 23 samples.

Results

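RNA of FAP+ cancer-associated fibroblasts (CAFs) sorted from Pan02 tumors was compared with RNA of whole Pan02 tumors, in 5 of the 23 samples of the series. The comparison asked which genes were enriched in the sorted cells, and it set the answer beside the same comparison in EO771, LL2 and MC38. This was done because the genes of fibroblasts were mostly no higher in Pan02 CAFs than in whole Pan02 tumors. Pan02 is a pancreatic ductal carcinoma line of C57BL/6 mice, and 500000 cells of it were injected under the skin of the flank of adult female C57BL/6 mice. For the 2 CAF libraries, tumors were digested overnight with collagenase, CD45+ cells were depleted on magnetic beads, and FAP+ cells were sorted from the remaining live cells by FACS in separate rounds. The sort is described without a stain for CD31 or for a marker of the cancer cells, and the number of animals behind each round is not given in the sources used here. The 3 tumor libraries were made from a fragment of each excised tumor, which was neither digested nor sorted. The sample titles of these 3 tumors read Pan01 while their cell line label reads Pan02, and they were grouped by the cell line label. EO771 (breast), LL2 (lung) and MC38 (colon) tumors were grown and sorted in the same way, with 2 CAF libraries and 3 tumors each, and B16 had no CAF library.

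FAP is a serine protease on the surface of activated fibroblasts, and it is the protein the sort was made on. CAFs lay down the fibrillar collagens of the tumor stroma, respond to platelet-derived growth factor through PDGFRα and PDGFRβ, and are commonly divided into contractile myofibroblast-like and cytokine-secreting inflammatory states. Pan02 cancer cells derive from pancreatic duct, where SOX9 and PDX1 are transcription factors of the duct lineage and TSPAN8 is a tetraspanin of digestive epithelia.

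The authors deposited RPKM for CAFs and expected counts for tumors, and tumor counts were turned into RPKM on each tumor's own sum. Levels below are RPKM, and a difference is the mean log2(RPKM + 1) of the 2 CAF libraries minus that of the 3 tumors. A gene was called higher or lower where the difference was at least 1 either way and the groups did not overlap. This is a description without a test, because the table of origin, the digestion and the cell population cannot be told apart, and 2 libraries against 3 could not give an exact permutation p below 0.2. The depth behind the values was about 32400000 and 35800000 reads in the CAF libraries and 41400000, 29900000 and 33400000 in the tumors. RPKM of the CAF libraries add up to more than those of the tumors, and with CAF values rescaled to a common denominator the median difference of all genes moved from 0.65 to 0.02, a shift of -0.63. Counts over gene lists are therefore given on both scales where they part, and for single genes where it is stated.

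Among 12604 genes measured, 2576 were called higher in Pan02 CAFs, which is 20.4%, and 775 were called lower, which is 6.15%. On the common denominator the counts were 354, or 2.81%, and 1121, or 8.89%, so the higher genes made up 76.9% of calls on one scale and 24% on the other. In EO771, LL2 and MC38 the shares called higher were 14.5%, 12.6% and 19.6%, and the shares called lower were 2.8%, 4.36% and 5.95%. Of the genes called in Pan02, 376 were called higher in all 4 models, or 14.6% of them, and 236 were called lower in all 4, or 30.5%.

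A second comparison was tested, with limma and Benjamini-Hochberg adjustment. It took the gap between CAFs and tumors in Pan02 minus the mean gap of EO771, LL2 and MC38. A factor shared by all libraries of a table then cancels for genes well above 1 RPKM in each group. For genes that were low in the other models it does not cancel, and the contrast stays close to the Pan02 gap itself. The scaling also differed between CAF libraries, where reads recovered from the RPKM values summed to 1.28 to 1.70 times the denominator. Of 14278 genes, 754 had a larger gap in Pan02 by at least 1 on the log2 scale, which is 5.28%, and 949 had a smaller one, which is 6.65%. With CAF values on the common denominator these counts were 355 and 900. Below, a contrast is this difference of gaps, given with its standard error and adjusted p. The p-values measure the spread between these libraries, of which separate animals are not stated. In bulk RNA, fewer cells of a type and less RNA per cell cannot be told apart.

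The 3 markers that describe these libraries did not behave alike. *Fap*, the marker of the sort, measured 3.28 and 1.89 RPKM in the CAF libraries and 1.02, 2.65 and 2.42 RPKM in the tumors, and the groups overlapped. Its difference was 0.26, and -0.23 on the common denominator. In the other 3 models *Fap* was at 4.29 to 11.4 RPKM in the CAF libraries and at most 1.66 RPKM in the tumors, with differences of 2.66, 2.76 and 2.06, and the contrast for Pan02 was -2.24 ± 0.38 (SE; limma, adjusted p = 0.00045). *Fap* lies on chromosome 2 at 62500936-62574021 (mm10), and its Pan02 difference was 0.54 without CAF library 2, -0.02 without CAF library 1 and -0.01 without tumor 1.

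*Ptprc*, which encodes CD45, measured 0.089 and 0.091 RPKM in the CAF libraries and 3.33, 10.7 and 8.72 RPKM in the tumors. Both CAF libraries were far below each tumor, the difference was -2.86, and the gaps of the other models were -2.08, -2.86 and -3.54. *Tspan8* (chromosome 10, 115817284-115849893) went the other way, with 202 and 219 RPKM in the CAF libraries and 49.5, 77.6 and 67.6 RPKM in the tumors. It was at most 0.188 RPKM in the CAF libraries of the other models and at most 1.14 RPKM in their tumors, so it was abundant in Pan02 samples of both kinds and low in each sample of the other models. Its difference was 1.71, or 0.96 on the common denominator, and the contrast was 1.97 ± 0.22 (SE; limma, adjusted p = 2.9e-05).

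*Xist*, the RNA that silences the second X chromosome of female cells, measured 0.944 and 0.671 RPKM in the CAF libraries and 2, 2.85 and 3.07 RPKM in the tumors. The gap was -1.0 in Pan02 and 0.53, 0.88 and 0.53 in EO771, LL2 and MC38, a contrast of -1.65 ± 0.34 (SE; limma, adjusted p = 0.0015). The 4 Y-linked genes examined reached at most 0.0508 RPKM in any Pan02 library. In these markers the RNA went in part against the label of the libraries. *Fap* overlapped its tumor level, and *Tspan8* was called higher on the deposited scale but not on the common denominator, at 0.96. Epithelial genes as a list did not follow *Tspan8*. Their median difference was 0.13, and 20% of them were called higher beside 20.4% of all genes. The libraries are called CAFs below after their label.

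**Figure D1:**
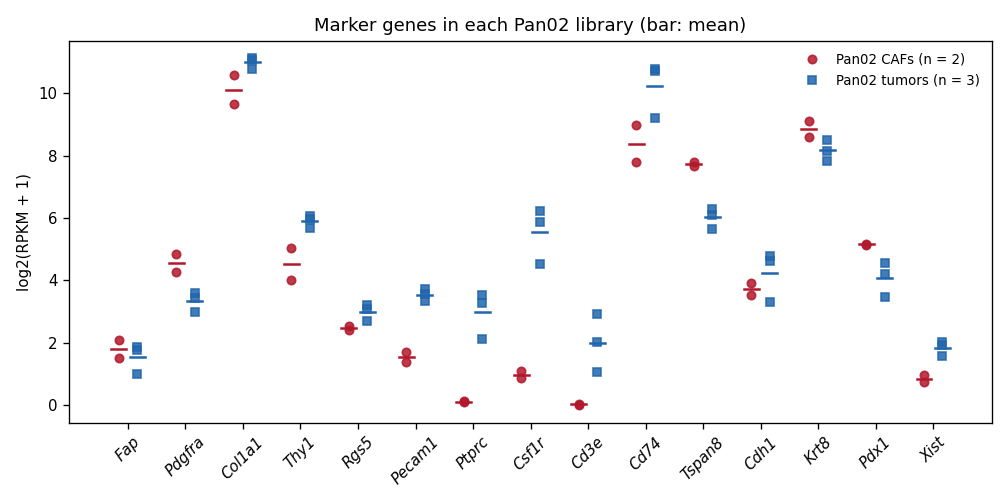
Levels of 15 marker genes in the Pan02 libraries on a log2(RPKM + 1) axis, with CAF libraries as red circles (n = 2), tumors as blue squares (n = 3) and a bar at each mean. Among fibroblast genes *Fap* overlaps between the groups, *Pdgfra* lies higher and *Col1a1* and *Thy1* lie lower in both CAF libraries. Leukocyte genes lie lower in CAFs, and *Tspan8* lies higher in both CAF libraries.

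Genes of fibroblasts were abundant in Pan02 CAFs without being enriched over the tumor. Of 20 fibroblast genes, all measured, 4 were called higher and 2 lower, with a median difference of 0.25. With the common denominator 1 was called higher and 8 lower, with a median of -0.42. The medians of the same list in EO771, LL2 and MC38 were 3.09, 2.75 and 1.76. The contrast was past the test and negative for 15 of the 20. It was also negative for 15 of the 20 with edgeR on reads recovered from the RPKM values, where 12.6% of all genes were negative and 4.73% positive, and 6.42% were negative with both tools. The summed level of the list was 9610 and 6750 RPKM in the CAF libraries and 8020, 8060 and 7750 RPKM in the tumors. The genes called lower numbered 6 without CAF library 1, 0 without CAF library 2 and 1 without tumor 3, while the negative contrasts numbered between 11 and 15 without any single Pan02 library.

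*Col1a1*, a chain of collagen I (chromosome 11, 94936224-94953042), measured 1540 and 795 RPKM in CAFs and 2230, 2140 and 1730 RPKM in tumors. Both CAF libraries lay below each tumor, by a mean difference of -0.87 that was -1.61, and called lower, on the common denominator, whereas the gaps in EO771, LL2 and MC38 were 4.05, 3.65 and 1.76. The contrast was -4.02 ± 0.85 (SE; limma, adjusted p = 0.0017). *Col1a2*, the other chain, had 834 and 386 RPKM in CAFs against 1080, 1100 and 1070 RPKM in tumors, and its contrast was -4.05 ± 0.84 (adjusted p = 0.0015). *Col3a1*, the collagen III chain, overlapped between the groups at 954 and 486 RPKM against 620, 977 and 930 RPKM. Its contrast was -3.41 ± 0.70 (adjusted p = 0.0015), and its difference changed sign with the CAF library, from -0.77 without CAF library 1 to 0.21 without CAF library 2.

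Surface and matrix markers divided in the same way. *Thy1*, which encodes the fibroblast antigen CD90, measured 31.7 and 15 RPKM in CAFs and 61.9, 50.2 and 65.2 RPKM in tumors. It was called lower at -1.38, although without CAF library 2 the difference was -0.87, and its gaps of 2.82, 2.63 and 1.27 in the other models gave a contrast of -3.62 ± 0.61 (SE; limma, adjusted p = 0.00041). *Postn*, which encodes the matricellular protein periostin, measured 205 and 99.1 RPKM in CAFs and 278, 282 and 313 RPKM in tumors, with a difference of -1.02 that was -1.55 without CAF library 1 and -0.50 without CAF library 2. Its contrast was -4.19 ± 0.70 (adjusted p = 0.00037).

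A few fibroblast genes were higher in Pan02 CAFs, at 20% of the list beside 20.4% of all genes. On the common denominator 1 of the 20 was called higher, beside 2.81% of all genes. *Pdgfra* measured 18.4 and 27.5 RPKM in CAFs and 7, 9.78 and 11.2 RPKM in tumors, a difference of 1.21 that was 0.51 on the common denominator. *Pdgfrb*, at 68.7 and 50.7 RPKM against 28.3, 21.2 and 16.3 RPKM, had a difference of 1.42 (0.69 on the common denominator) and gaps of 1.85, 2.98 and 2.45 in the other models. Its contrast of -1.01 ± 0.33 (SE; limma, adjusted p = 0.024) was lost without CAF library 2 (-0.79, adjusted p = 0.16), without tumor 1 (-0.81, adjusted p = 0.062) and without LL2 (-0.73, adjusted p = 0.13). *Dcn*, the small proteoglycan decorin, was at 354 and 540 RPKM in CAFs and 71.2, 145 and 185 RPKM in tumors, higher on both scales at 1.81 and 1.07, and its contrast was not past the test. For these 3 genes both CAF libraries were above each tumor, which none of the collagen genes above showed.

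Collagens and their processing enzymes showed the pattern across the list. Of 23 members 22 were measured, with 1 called higher, 1 lower and a median difference of -0.02, or -0.71 on the common denominator, where 8 were called lower and 0 higher. The medians in EO771, LL2 and MC38 were 2.23, 2.62 and 1.65, and 19 of the 22 contrasts were negative past the test, a count that stayed between 17 and 19 without any single Pan02 library. The genes called lower numbered 5 without CAF library 1 and 0 without CAF library 2, and those called higher 0 and 2. The gene called lower, *Loxl2*, encodes a lysyl oxidase that crosslinks collagen, and measured 10.4 and 5.04 RPKM in CAFs against 27.9, 19.5 and 18.1 RPKM in tumors. Its difference was -1.44 and its contrast -3.70 ± 0.60 (SE; limma, adjusted p = 0.00031).

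Basement membrane genes differed from the fibrillar collagens. Of 17 members 11 were measured, 6 were called higher and 0 lower, with a median of 1.09 beside 0.83, 1.66 and 1.27 in EO771, LL2 and MC38. The median was 0.36 on the common denominator, where 0 were called higher and 1 lower. *Lama5*, a laminin chain that epithelia deposit, measured 51.6 and 51.5 RPKM in CAFs and 25.5, 16.1 and 13.2 RPKM in tumors, a difference of 1.5 (0.77 on the common denominator) beside 0.22, 0.89 and 0.61 in the other models. *Lamb1*, another laminin chain, measured 66.5 and 73.1 RPKM against 30.6, 19.9 and 24.1 RPKM, and *Col4a1*, a chain of collagen IV, measured 114 and 105 RPKM against 69.1, 50.1 and 36.9 RPKM. Contrasts were negative past the test for 5 of the 11, among them *Col7a1*, the anchoring fibril collagen, at -2.71 (limma, adjusted p = 0.001), and for 3 without CAF library 2.

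Myofibroblast genes were not higher as a list. Of 12 members 9 were measured, 1 was called higher and 2 lower, and 0 and 3 on the common denominator. The median of 0.18 became -0.56 there, beside 2.68, 2.07 and 1.51 in EO771, LL2 and MC38. *Acta2*, the smooth muscle actin gene, measured 119 and 89.1 RPKM in CAFs and 125, 40.1 and 40.5 RPKM in tumors, so that tumor 1 was as high as the CAFs. Its difference was 0.79, and 1.33 without tumor 1. *Tagln*, which encodes the actin-binding protein transgelin, had 41.9 and 20.4 RPKM in CAFs against 130, 48.1 and 49.5 RPKM in tumors. Its contrast of -3.96 ± 0.81 (SE; limma, adjusted p = 0.0014) concerns a gene that overlaps other genes on 60.9% of its exon bases, and reads were counted on both strands. Contrasts were negative past the test for 4 of the 9.

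Cytokine genes of inflammatory fibroblasts were mixed. All 14 members were measured, 3 were called higher and 0 lower, and the median of 0.55 became -0.05 on the common denominator, where 2 were called higher. *Cxcl1*, a neutrophil-attracting chemokine, measured 29.9 and 25.4 RPKM in CAFs and 0.716, 2.45 and 0.572 RPKM in tumors, a difference of 3.76 beside 6.41, 1.41 and 1.28 in the other models. *Lif*, a cytokine of the interleukin-6 family, had 34 and 10.5 RPKM in CAFs against 2.88, 5.32 and 2.5 RPKM in tumors. Its contrast was 1.66 ± 0.55 (SE; limma, adjusted p = 0.023), which was 0.86 (adjusted p = 0.25) without CAF library 1, 1.49 (adjusted p = 0.061) without tumor 3 and 1.48 (adjusted p = 0.081) without MC38. In contrast, *C3*, which encodes complement component 3, overlapped between the groups at 289 and 232 RPKM against 69.1, 336 and 287 RPKM, and *Cxcl12*, the ligand of CXCR4, at 21.6 and 10.5 RPKM against 4.97, 14.1 and 20 RPKM. Contrasts of both were negative, at -2.98 (adjusted p = 0.0061) and -2.67 (adjusted p = 0.0057), and the list held 7 negative contrasts and 1 positive. Without CAF library 2 the negative ones numbered 1 and the genes called higher 6.

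**Figure D2:**
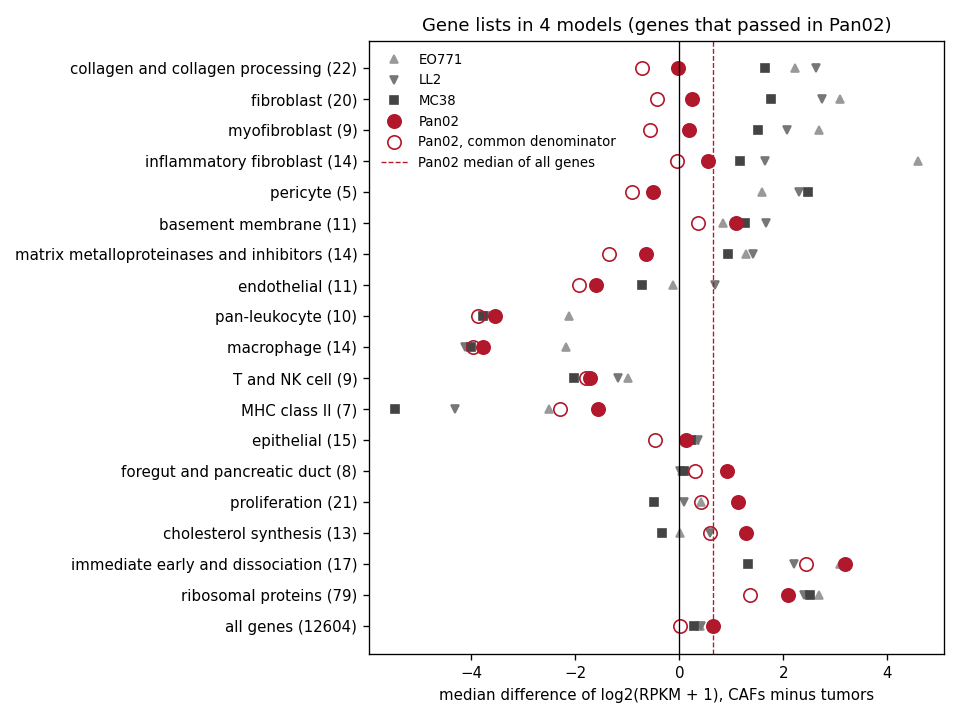
Median difference between CAFs and tumors, as log2(RPKM + 1), of 18 gene lists and of all genes in Pan02, EO771, LL2 and MC38, with an open circle for Pan02 on the common denominator and a dashed line at the Pan02 median of all genes. Fibroblast and collagen lists lie below that line in Pan02 and above it in the other 3 models, and leukocyte and macrophage lists lie below 0 in all 4.

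Matrix metalloproteinases and their inhibitors were lower more often than higher. Of 15 members 14 were measured, 1 was called higher and 5 lower, with a median of -0.64 beside 1.28, 1.41 and 0.93 in the other models. On the common denominator 0 were called higher and 8 lower, with a median of -1.35. *Mmp2*, a gelatinase of fibroblasts, measured 81.7 and 36.1 RPKM in CAFs and 62.8, 185 and 209 RPKM in tumors, with tumor 1 between the CAF libraries, and its contrast was -4.29 ± 0.58 (SE; limma, adjusted p = 9.6e-05). *Mmp13*, a collagenase, was at 2.63 and 0.934 RPKM in CAFs and 44.2, 24.5 and 24.7 RPKM in tumors, a difference of -3.54 and a contrast of -3.15 ± 0.65 (adjusted p = 0.0015). The member called higher was *Mmp28*, which encodes epilysin, at 19.8 and 28.7 RPKM against 7.03, 11.7 and 9.46 RPKM, a difference of 1.28 that was 0.58 on the common denominator. Contrasts were negative past the test for 9 of the 14.

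Pericyte and endothelial genes were at or below their tumor level. *Rgs5*, a regulator of G protein signaling in pericytes, measured 4.89 and 4.33 RPKM in CAFs and 5.48, 7.55 and 8.21 RPKM in tumors, and its gap of -0.51 stood against 1.94, 3.05 and 3.09 in the other models. The contrast was -3.20 ± 0.55 (SE; limma, adjusted p = 0.00044). *Ndufa4l2*, a mitochondrial protein gene counted among pericyte markers, had 8.55 and 4.93 RPKM against 28.1, 23.8 and 47.2 RPKM, a difference of -2.12 and a contrast of -4.64 ± 0.51 (adjusted p = 2.8e-05). Of the 8 pericyte genes 5 were measured, 0 were called higher, 1 was called lower (2 on the common denominator) and 4 had a negative contrast.

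Of 11 endothelial genes 0 were called higher and 8 lower, with a median of -1.60 beside -0.12, 0.68 and -0.71 in EO771, LL2 and MC38. Their summed level was 23.6 and 14.7 RPKM in CAFs and 90.4, 98.5 and 91.9 RPKM in tumors. *Pecam1*, which encodes CD31, measured 2.26 and 1.63 RPKM in CAFs and 9.23, 10.8 and 12.3 RPKM in tumors, and its contrast was -1.37 ± 0.28 (SE; limma, adjusted p = 0.0013), or -0.87 (adjusted p = 0.020) without LL2. *Plvap*, a protein of endothelial fenestrae, measured 8.74 and 6.96 RPKM against 42.1, 51.3 and 45.2 RPKM, with a contrast of -1.88 ± 0.33 (adjusted p = 0.00053). *Cdh5*, the endothelial cadherin, had a contrast of -1.44 ± 0.34 (adjusted p = 0.0034). Contrasts were negative for 8 of the 11, and for 5 without CAF library 2.

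Leukocyte genes were much lower in Pan02 CAFs. Of 10 pan-leukocyte genes 9 were called lower, with a median of -3.54 beside -2.12, -3.71 and -3.78 in the other models, and of 14 macrophage genes 13 were called lower (14 on the common denominator), with a median of -3.77 beside -2.17, -4.12 and -4.00. These counts were the same without any single Pan02 library. The summed macrophage level was 58.3 and 77.2 RPKM in CAFs and 903, 2130 and 3640 RPKM in tumors, and tumor 1 was the lowest of the tumors. *C1qa*, a chain of complement C1q that macrophages secrete, measured 3.33 and 5.29 RPKM in CAFs and 208, 485 and 1020 RPKM in tumors, a difference of -6.49. *Lyz2*, the myeloid lysozyme, had 3.85 and 10.4 RPKM against 216, 565 and 907 RPKM. *Csf1r*, the receptor for the macrophage growth factor CSF1, measured 0.842 and 1.14 RPKM against 21.9, 58.1 and 74.1 RPKM. Its contrast of -1.25 ± 0.45 (SE; limma, adjusted p = 0.034) was lost without CAF library 1 (-1.15, adjusted p = 0.12), CAF library 2 (-1.36, adjusted p = 0.081), tumor 3 (-0.91, adjusted p = 0.11) or EO771 (-0.55, adjusted p = 0.44). Contrasts were negative past the test for 3 of the 14 macrophage genes, for 7 without tumor 1 and for 1 without CAF library 1 or tumor 2. Without tumor 2 another 1 was positive. The 12 genes with the largest negative differences were *Retnla*, *C1qa*, *C1qb*, *Ccl6*, *C1qc*, *Ctss*, *Lyz2*, *Ccl8*, *Mir682*, *Tyrobp*, *Apoe* and *Tpsb2*.

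*Cd53*, a tetraspanin of leukocytes, was the pan-leukocyte gene that was not lower. It measured 16.1 and 28.1 RPKM in CAFs and 13.2, 16.7 and 38.7 RPKM in tumors, while *Ptprc* in the same CAF libraries was near 0. Its gap of 0.05 stood against -0.31, -3.10 and -3.49 in EO771, LL2 and MC38, and the contrast was 2.35 (limma, adjusted p = 0.00044). T and NK cell genes were lower in all 9 members measured, with a median of -1.72 beside -0.98, -1.18 and -2.03 in the other models. *Cd3e*, a chain of the T cell receptor complex, measured 0.043 and 0 RPKM in CAFs and 1.12, 6.52 and 3.06 RPKM in tumors. Neutrophil genes were called lower for 7 of 8 measured members, B and plasma cell genes for 3 of 4 and dendritic cell genes for 2 of 3.

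Some of these genes also had a negative contrast against the other models. *Mcpt2*, a mast cell protease, measured 0.064 and 0.058 RPKM in CAFs and 40.3, 31.9 and 92.1 RPKM in tumors, a difference of -5.56 beside -1.39, -0.59 and -1.10 in the other models. Its contrast was -4.54 ± 0.49 (SE; limma, adjusted p = 2.8e-05), and -3.97 (adjusted p = 0.99) with edgeR on recovered reads. *Tpsb2*, a mast cell tryptase, measured 0.715 and 1.73 RPKM against 87.7, 85.9 and 171 RPKM, and its contrast of -2.58 ± 0.73 (adjusted p = 0.010) had the other sign with edgeR, at 1.95. *Retnla*, a secreted factor of alternatively activated macrophages, ranged over the tumors from 4.46 to 172 and 1020 RPKM and was at 0.052 and 0.094 RPKM in CAFs. Its contrast of -4.78 ± 1.55 (adjusted p = 0.021) was lost without CAF library 1 (-4.76, adjusted p = 0.067), CAF library 2 (-4.81, adjusted p = 0.077), tumor 2 (-4.38, adjusted p = 0.053), tumor 3 (-3.10, adjusted p = 0.055) or EO771 (-3.95, adjusted p = 0.11). *Apoe*, the lipoprotein gene of macrophages, and *Ccl8*, a monocyte chemokine, had differences of -5.79 and -5.99 and contrasts of -2.31 ± 0.62 (adjusted p = 0.0075) and -3.83 ± 1.03 (adjusted p = 0.008). Without EO771 the contrast of *Apoe* was -1.58 (adjusted p = 0.11), and without CAF library 2 that of *Ccl8* was -3.55 (adjusted p = 0.053).

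MHC class II genes departed from the leukocyte genes. *Cd74*, the invariant chain, measured 500 and 219 RPKM in CAFs and 591, 1750 and 1660 RPKM in tumors. The CAF libraries lay below each tumor, by -1.85, but the gaps in EO771, LL2 and MC38 were -2.71, -6.84 and -7.00, so the contrast was 3.66 ± 0.76 (SE; limma, adjusted p = 0.0015). *H2-Aa*, an MHC class II α chain, measured 173 and 85 RPKM against 198, 622 and 567 RPKM, with a contrast of 3.14 ± 0.77 (adjusted p = 0.0044). *H2-Eb1* measured 176 and 90.5 RPKM against 181, 581 and 492 RPKM. Of the 7 members 4 were called lower, 6 on the common denominator, and 4 had a positive contrast. The summed level was 1150 and 529 RPKM in CAFs beside a summed macrophage level of 58.3 and 77.2 RPKM in the same libraries. Macrophage genes were lower by a median of -3.77 in Pan02 and MHC class II genes by -1.56. The 9 MHC class I genes had a median of 0.02, or -0.72 on the common denominator, and 0 were called.

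Epithelial genes were present in Pan02 CAFs, some above and some below the tumor level. Of 27 epithelial genes 15 were measured, 3 were called higher and 1 lower, with a median of 0.13. These shares of 20% and 6.67% were near the 20.4% and 6.15% of all genes. With the common denominator 1 was called higher and 3 lower, with a median of -0.47. *Krt8* and *Krt18*, keratins of simple epithelia that some mesenchymal cells also express, measured 385 and 545 RPKM and 349 and 483 RPKM in CAFs, with 227, 362 and 283 RPKM and 328, 476 and 341 RPKM in tumors. *Cdh1*, which encodes E-cadherin, measured 14.1 and 10.5 RPKM in CAFs and 8.95, 23.6 and 26.8 RPKM in tumors, and 0.111 to 0.621 RPKM in the 6 CAF libraries of the other models. *Krt19*, a duct keratin, had 81.5 and 78.9 RPKM in CAFs against 102, 177 and 101 RPKM in tumors, and 0.55 to 14.8 RPKM in the other CAF libraries. Its contrast was -1.71 ± 0.43 (SE; limma, adjusted p = 0.0049). *Epcam*, the epithelial adhesion molecule, measured 2.08 and 0.764 RPKM in CAFs and 0.253, 0.531 and 0.358 RPKM in tumors, and was too low for the filter. *Lgals4*, a galectin of digestive epithelium, was higher on both scales, at 8.75 and 6.7 RPKM against 1.03, 1.31 and 1.25 RPKM, while the tight junction gene *Cldn3* was lower, at 6.08 and 1.82 RPKM against 14.4, 8.29 and 6.83 RPKM.

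Some transcription factors of foregut and duct were higher in Pan02 CAFs. Of 22 members of that list 8 were measured, 3 were called higher and 0 lower, with a median of 0.91 (0.30 on the common denominator, where 1 was called higher) beside 0.06, 0.01 and 0.08 in the other models. *Sox9* measured 101 and 58.1 RPKM in CAFs and 25.9, 18.8 and 12.5 RPKM in tumors, a difference of 2.01, or 1.28 on the common denominator. Both CAF libraries were above the highest tumor, and the contrast was 1.71 ± 0.39 (SE; limma, adjusted p = 0.0029). *Pdx1*, the pancreas lineage factor, measured 34.2 and 35.3 RPKM in CAFs and 22.5, 17.5 and 10.2 RPKM in tumors, and its gaps in the other models lay between -0.03 and 0.11. The contrast of 1.01 ± 0.24 (adjusted p = 0.0037) was 0.33 (adjusted p = 0.28) on the common denominator and -0.14 with edgeR. *Onecut2*, a homeobox factor of liver and pancreas, had a contrast of 1.07 ± 0.13 (adjusted p = 5.3e-05) and of 0.07 (adjusted p = 0.96) with edgeR. *Cdx2*, an intestinal homeobox factor, had a contrast of 1.06 ± 0.19 (adjusted p = 0.00052), and of 0.45 (adjusted p = 0.062) on the common denominator. *Ehf*, an epithelial ETS factor, had 23 and 26 RPKM against 20.7, 11.2 and 3.15 RPKM, and its contrast of 1.25 ± 0.47 (adjusted p = 0.042) was 0.57 (adjusted p = 0.36) on the common denominator, 0.60 (adjusted p = 0.032) without tumor 3 and -0.49 with edgeR. The list held 4 positive contrasts, 2 of them with both limma and edgeR, 1 on the common denominator, and 2 without CAF library 1 or without tumor 3, while 5 genes were called higher without CAF library 2 or without tumor 1.

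Genes that only the Pan02 tumors expressed were looked up in the CAFs, a description chosen after values had been seen. There were 22 genes with at least 5 RPKM in each Pan02 tumor and under 1 RPKM in the 12 tumors of the other 4 models. All 22 were at 1 RPKM or more in both Pan02 CAF libraries, 20 were at 5 RPKM or more, and 11 of them were under 1 RPKM in all 6 CAF libraries of the other models. In 11 of the 22 both CAF libraries were above each tumor, in 2, *Cldn3* and *Lypd2*, both were below, and the median difference was 0.59, beside 0.65 for all genes. Of all 12604 genes measured in Pan02, 9078 had both CAF libraries above each tumor and 1179 had both below. The 22 genes were chosen by a minimum level in each Pan02 tumor and all genes were not. The counts therefore cannot show whether the 22 differ from all genes in this respect. These values are on the deposited scale. The same look-up gave 6 such genes in EO771, 2 in LL2 and 8 in MC38, and all of them were at 1 RPKM or more in both CAF libraries of their own model. Both CAF libraries were above each tumor of the model in 1 of the 6, 2 of the 2 and 5 of the 8, with median differences of 0, 0.74 and 0.53.

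*Cldn2*, a claudin of leaky epithelia, measured 64.5 and 84.2 RPKM in Pan02 CAFs and 65.5, 49.2 and 33.3 RPKM in the tumors, and at most 0.049 RPKM in other CAF libraries. *Notum*, which encodes a secreted inhibitor of WNT ligands, measured 128 and 126 RPKM in CAFs and 34, 59.4 and 23.7 RPKM in tumors, a difference of 1.78. *Bmp4*, a growth factor of the TGF-β superfamily, measured 128 and 98.6 RPKM against 34.5, 38.8 and 17.4 RPKM, a difference of 1.93. On the deposited scale the mean level of each of these 3 genes was higher in the sorted cells than in the tumors. On the common denominator, where the median difference of all genes shifted by -0.63, their values are not given here. *Kirrel3*, an adhesion molecule, had 49.2 and 58.9 RPKM against 22.7, 18.1 and 15.5 RPKM. *Chil4*, a chitinase-like protein, varied most between the tumors, at 26.2, 304 and 796 RPKM, and was at 23.1 and 45.5 RPKM in CAFs. The share of cancer cells in the sorted libraries was not tested, and expression of these genes by fibroblasts of Pan02 tumors cannot be told apart from it here.

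**Figure D3:**
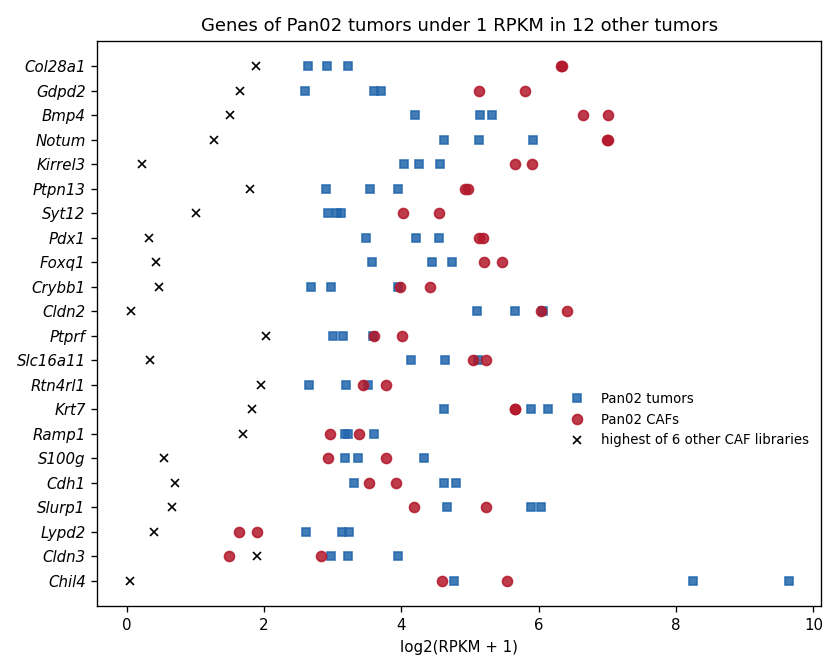
Levels of the 22 genes that were at 5 RPKM or more in each Pan02 tumor and under 1 RPKM in the tumors of other models, with tumors as squares, Pan02 CAF libraries as circles and the highest of the 6 other CAF libraries as a cross. Both Pan02 CAF values lie above all tumor values for 11 of the 22 genes and below them for 2, on the deposited scale. Of all 12604 genes measured, which were not chosen by a minimum in each tumor, 9078 lie above and 1179 below in this way.

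Genes of the cell cycle were higher in Pan02 CAFs, to an extent that differed between the CAF libraries. Of 21 members 12 were called higher and 0 lower, with a median of 1.13 beside 0.42, 0.09 and -0.48 in EO771, LL2 and MC38. On the common denominator the median was 0.42 and 1 was called higher. *Top2a*, the topoisomerase of dividing cells, measured 39.6 and 67.6 RPKM in CAFs and 24.2, 19.4 and 14.4 RPKM in tumors, and its contrast was 1.64 ± 0.24 (SE; limma, adjusted p = 1.6e-04). *Mki67*, which encodes the proliferation antigen Ki-67, measured 10.2 and 18.5 RPKM against 7.09, 5.71 and 4.25 RPKM. Its contrast of 1.01 ± 0.26 (adjusted p = 0.0056) was 0.62 (adjusted p = 0.090) without CAF library 2. *Ccnb1*, the cyclin of mitotic entry, was higher on both scales, at 9.49 and 18.1 RPKM against 3.71, 2.99 and 2.73 RPKM, with a contrast of 1.32 ± 0.24 (adjusted p = 0.00066). *Rrm2*, a subunit of ribonucleotide reductase, had a contrast of 1.68 ± 0.32 (adjusted p = 0.00082). CAF library 2 was the higher of the pair for each of these 4 genes. The list held 11 positive contrasts, 9 of them with both tools, where 3.63% of all genes were positive. Without CAF library 2 it held 3, with 3 genes called higher, without tumor 3 it held 7, and without CAF library 1 it held 19, with 21 called higher.

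Genes of cholesterol synthesis, targets of the transcription factor SREBP2, were higher in Pan02 CAFs and hardly so in the other models. Of 14 members 13 were measured, 9 were called higher and 0 lower, with a median of 1.29 beside 0.01, 0.59 and -0.34. On the common denominator the median was 0.58 and 0 were called higher. Contrasts were positive past the test for 9 of the 13, 7 of them with both tools and 7 on the common denominator, and for 7 to 9 without any single Pan02 library. The summed level was 355 and 371 RPKM in CAFs and 183, 143 and 116 RPKM in tumors, so the CAF libraries lay close together and above each tumor.

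*Hmgcs1*, an early synthase of the pathway (chromosome 13, 119690351-119708260), measured 36.7 and 36.4 RPKM in CAFs and 13.9, 12.6 and 9.2 RPKM in tumors. Its contrast was 1.48 ± 0.26 (SE; limma, adjusted p = 0.00057), and it overlaps other exons on 16% of its bases. *Sqle*, the squalene epoxidase, had 68.1 and 74.6 RPKM against 39.3, 18.8 and 17.5 RPKM, with a contrast of 1.62 ± 0.27 (adjusted p = 0.00041). *Cyp51*, the lanosterol demethylase, had 24.3 and 26 RPKM against 11.1, 6.66 and 5.16 RPKM, with a contrast of 1.77 ± 0.24 (adjusted p = 9.7e-05). For these 3 genes both CAF libraries were above each tumor.

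The promoter of *Hmgcs1* is shown because members of this list moved together and it alone of the 9 members with a promoter in the RefSeq table holds the sterol element TCACCCCAC, searched on both strands. Of 32851 promoters 0.496% hold these letters. The 250 bases before the start are chr13:119690101-119690350 of GRCm38.p6, plus strand, with the element in capitals at 137 bases before the start. A match is a description of the sequence and not of binding.
Hmgcs1: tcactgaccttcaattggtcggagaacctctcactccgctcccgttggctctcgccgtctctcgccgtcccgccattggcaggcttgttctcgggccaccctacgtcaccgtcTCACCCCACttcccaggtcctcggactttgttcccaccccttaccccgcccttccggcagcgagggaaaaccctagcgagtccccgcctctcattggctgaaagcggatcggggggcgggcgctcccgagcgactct

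**Figure D4:**
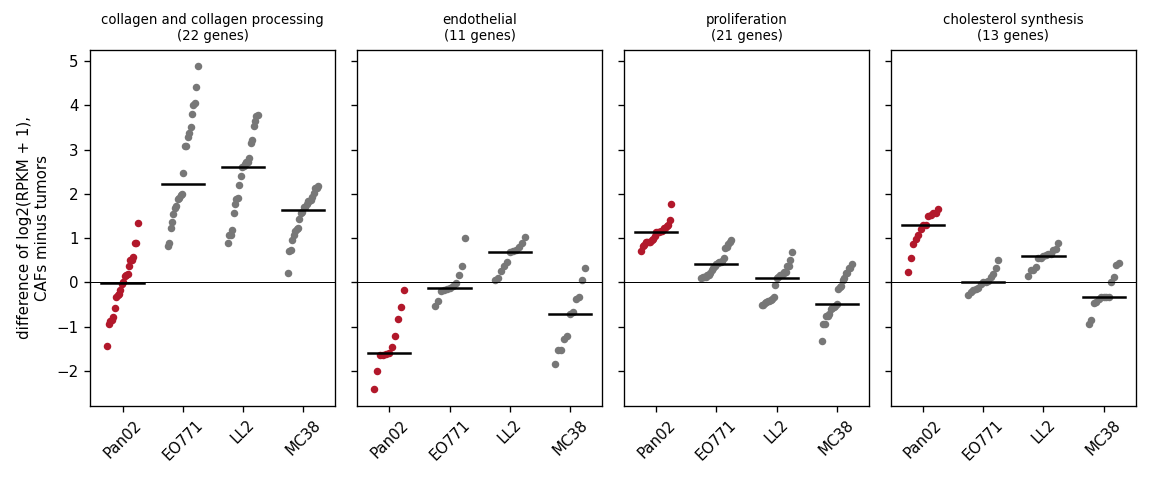
Difference between CAFs and tumors of each measured gene of the collagen, endothelial, proliferation and cholesterol synthesis lists in Pan02, EO771, LL2 and MC38, as log2(RPKM + 1), with a bar at each median. Pan02 has the lowest medians for collagen (-0.02) and endothelial genes (-1.60) and the highest for proliferation (1.13) and cholesterol synthesis (1.29).

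Immediate early genes and heat shock genes, which many cells induce during enzymatic dissociation, had the highest median difference of the 37 lists. All 17 members were measured, 16 were called higher and 0 lower, and the median was 3.18, or 2.44 on the common denominator, where 7 were called higher. The other models showed the same direction, with medians of 3.09, 2.21 and 1.32, and 1 contrast of the 17 was past the test. Without tumor 2 the positive contrasts numbered 8. Only the CAF samples were digested overnight, and the part of digestion in these differences was not tested.

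*Fos*, a subunit of the AP-1 transcription factor, measured 900 and 306 RPKM in CAFs and 14.1, 256 and 11.5 RPKM in tumors. Tumor 2 was close to CAF library 2 and the other tumors were far below. *Dusp1*, a phosphatase of MAP kinases, showed the same pattern at 716 and 322 RPKM against 18.2, 192 and 17.8 RPKM, a difference of 3.55 beside 2.84, 1.24 and 1.79. *Jun*, the AP-1 partner of FOS, measured 1120 and 713 RPKM against 41.9, 118 and 59.4 RPKM. *Hspa1a*, an inducible heat shock protein of the HSP70 family, measured 138 and 127 RPKM against 3.68, 2.85 and 1.4 RPKM, a difference of 5.25 beside 6.53, 5.30 and 2.30. It has a near-identical copy, *Hspa1b*, so reads may be divided between them. *Dnajb1*, a cochaperone of HSP70, measured 238 and 279 RPKM against 16.5, 14.5 and 10.1 RPKM, and was the member with a contrast past the test, 2.05 ± 0.31 (SE; limma, adjusted p = 2.1e-04). *Hsph1*, a chaperone of the HSP110 family named after its values were seen, had a contrast of 1.78 ± 0.34 (adjusted p = 0.00081).

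Promoters of *Hspa1a*, for which all tumors were far below the CAFs, and of *Dusp1*, for which tumor 2 was not, are shown because members of this list moved together. The heat shock element was searched as GAANNTTC, which 6.69% of all promoters hold, and 3 of the 15 members with a promoter in the table, *Hspa1a*, *Hspa1b* and *Jun*. The cyclic AMP element was searched as TGACGTCA, which 1.55% of all promoters and 2 of the 15, *Btg2* and *Dusp1*, hold. The sequences are RefSeq's, GRCm38.p6, minus strand, at chr17:34972157-34972406 for *Hspa1a* and chr17:26508473-26508722 for *Dusp1*, with the elements in capitals at 104 and 143 bases before the start.
Hspa1a: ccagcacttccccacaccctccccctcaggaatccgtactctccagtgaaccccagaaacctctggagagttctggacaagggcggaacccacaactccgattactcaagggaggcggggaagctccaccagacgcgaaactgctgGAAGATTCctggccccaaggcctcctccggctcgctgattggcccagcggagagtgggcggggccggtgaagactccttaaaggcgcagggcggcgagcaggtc
Dusp1: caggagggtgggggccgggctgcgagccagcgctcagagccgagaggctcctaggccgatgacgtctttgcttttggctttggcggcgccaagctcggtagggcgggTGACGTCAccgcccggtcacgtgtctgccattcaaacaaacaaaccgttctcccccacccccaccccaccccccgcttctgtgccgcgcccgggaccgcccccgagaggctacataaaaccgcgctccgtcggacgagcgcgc

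The largest differences in the direct comparison were those of ribosomal protein and housekeeping genes, and they were of similar size in the other models. Of 81 ribosomal protein genes 79 were measured, 59 were called higher and 1 lower, and 46 and 2 on the common denominator. Their median was 2.09, or 1.35 on the common denominator, beside 2.68, 2.40 and 2.51 in the other models. *Gapdh*, a glycolytic enzyme gene, measured 475 and 519 RPKM in CAFs and 4.51, 3.04 and 3.49 RPKM in tumors, and over the 4 models 475 to 1350 RPKM in CAFs and 3.04 to 11.2 RPKM in tumors. *Rpl28* measured 647 and 779 RPKM against 6.91, 3.77 and 4.54 RPKM, and *Ppia*, which encodes cyclophilin A, 186 and 210 RPKM against 1.32, 0.597 and 0.761 RPKM. Differences of these 3 genes were 6.31 to 7.48 in every model. Each has near-identical copies elsewhere in the genome, so their levels are uncertain, and the way reads were divided among copies in each table was not tested. The 12 genes with the largest positive differences were *Rpl28*, *Gapdh*, *Ppia*, *Rps27rt*, *Rpl10*, *Rpl17*, *Gm6793*, *Rps12*, *Rpl9*, *Fau*, *Rps27* and *Rps23*.

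Among genes that were also called higher in Pan02 CAFs and reached a mean of 10 RPKM there, the 6 largest positive contrasts were those of *Cxcl2*, *Arc*, *Cxcl3*, *Ptn*, *Angpt1* and *Dusp5*. *Cxcl2*, a neutrophil-attracting chemokine, measured 151 and 70.3 RPKM in CAFs and 4.09, 7.74 and 1.36 RPKM in tumors, a difference of 4.46. Its gap was 3.85 in EO771 and -1.28 and -1.46 in LL2 and MC38, and the contrast was 4.09 ± 0.86 (SE; limma, adjusted p = 0.0016). *Arc*, an immediate early gene best known from neurons, measured 40.8 and 28.9 RPKM against 0.435, 0.904 and 0.358 RPKM, with a contrast of 3.32 ± 0.21 (adjusted p = 8.9e-07). *Cxcl3*, a chemokine next to *Cxcl2*, had a contrast of 2.68 ± 0.70 (adjusted p = 0.0067), which was 1.69 (adjusted p = 0.062) without LL2 and 2.48 (adjusted p = 0.053) with edgeR.

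*Ptn*, which encodes the heparin-binding growth factor pleiotrophin, measured 141 and 189 RPKM in CAFs and 8.59, 9.33 and 8.64 RPKM in tumors. It was higher on both scales, at 4.06 and 3.32, beside gaps of 2.03, 1.73 and 0.96, and its contrast was 2.48 ± 0.26 (SE; limma, adjusted p = 2.5e-05). *Angpt1*, the ligand of the TIE2 receptor of endothelium, measured 21.6 and 7.06 RPKM against 0.359, 0.525 and 0.968 RPKM, with a contrast of 2.47 ± 0.33 (adjusted p = 9.7e-05). *Dusp5*, a phosphatase of ERK kinases, measured 52.9 and 31.4 RPKM against 10.6, 27.4 and 5.62 RPKM, and its contrast of 2.33 ± 0.63 (adjusted p = 0.0078) was 1.96 (adjusted p = 0.056) without CAF library 1. *Angpt1* and *Dusp5* share 17.3% and 22.1% of their exon bases with other genes. *Col28a1*, a collagen named after its values were seen, was at 79 and 80 RPKM against 5.24, 6.58 and 8.36 RPKM, with a contrast of 1.92 ± 0.18 (adjusted p = 1.5e-05) that had the other sign on recovered reads, at -1.02 (adjusted p = 0.057) with edgeR and -1.05 (adjusted p = 0.025) with DESeq2, where it was past the threshold in the opposite direction. With a pseudocount of 0.1 it was 0.12 (adjusted p = 0.81).

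Among genes also called lower in Pan02 CAFs, by the same rule, the 6 most negative contrasts were those of *Saa3*, *Retnla*, *Ndufa4l2*, *Mcpt2*, *Cpxm1* and *Mfap4*. *Saa3*, a serum amyloid gene, measured 9.47 and 3.19 RPKM in CAFs and 25.6, 19.9 and 43.4 RPKM in tumors, a difference of -2.13 beside 5.38, 1.61 and 3.14 in EO771, LL2 and MC38. The contrast was -5.51 ± 1.02 (SE; limma, adjusted p = 0.00072). *Mfap4*, a glycoprotein of elastic fibers, measured 26.1 and 16.8 RPKM against 47.9, 51 and 40.8 RPKM, with a contrast of -4.32 ± 0.71 (adjusted p = 0.00034). *Cpxm1*, a carboxypeptidase-like protein, measured 66.9 and 28.6 RPKM against 82, 128 and 175 RPKM, and its contrast was -4.36 ± 0.70 (adjusted p = 0.00031). The mean difference of each of the 3 genes was positive in each other model and negative in Pan02, where that of *Cpxm1* was -1.46, or -0.86 without CAF library 2.

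**Figure D5:**
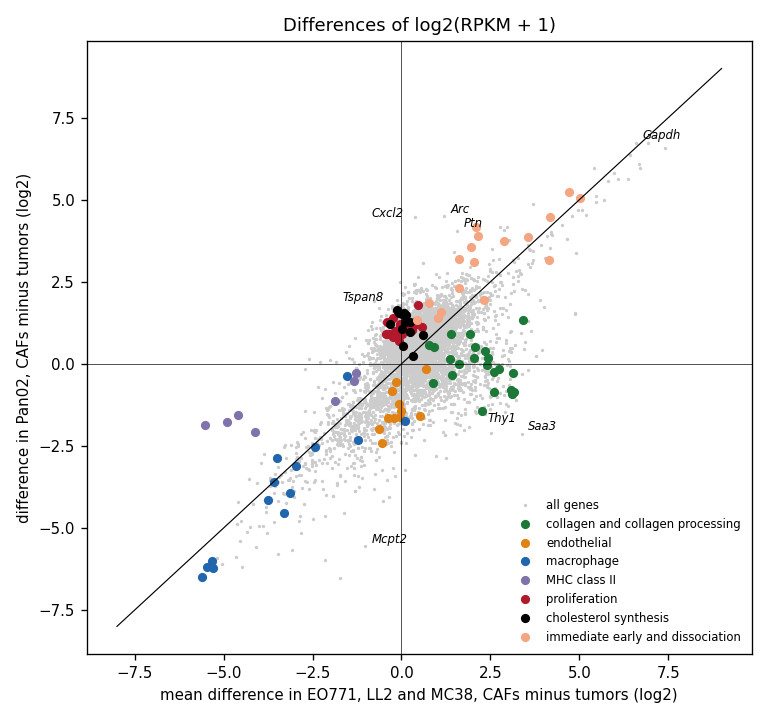
Difference between CAFs and tumors in Pan02 (vertical axis) against the mean difference in EO771, LL2 and MC38 (horizontal axis) for each gene tested, both as log2(RPKM + 1), with gene lists in color and a diagonal where both are equal. Collagen genes lie below the diagonal, *Tspan8*, *Ptn* and *Cxcl2* lie above it, and *Gapdh* lies near it.

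Genes of immune suppression, which the study asked about in CAFs, were lower more often than higher. Of 20 members 17 were measured, 1 was called higher and 5 lower, with a median of -0.02. With the common denominator 0 were called higher and 5 lower, with a median of -0.60. *Ptgs2*, which encodes cyclooxygenase 2, was the one called higher, at 56 and 24.1 RPKM in CAFs and 2.91, 19 and 2.68 RPKM in tumors. *Arg1*, the arginase of myeloid cells, measured 2.21 and 1.49 RPKM against 22, 97.2 and 441 RPKM, and *Vsir*, which encodes the checkpoint ligand VISTA, 6.67 and 5.5 RPKM against 11.8, 21.7 and 23.7 RPKM. *Cd274*, which encodes PD-L1, overlapped between the groups at 7.3 and 3.84 RPKM against 2.41, 10 and 5.87 RPKM.

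Contents of the tumor fragments other than tumor and leukocytes were also lower in CAFs. Skeletal muscle genes were called lower for 8 of 9 measured members, with a summed level of 20.1 and 19.9 RPKM in CAFs and 328, 79.8 and 19.4 RPKM in tumors. The sum of tumor 3 was close to those of the CAFs, although each of the 8 genes was higher in tumor 3 than in both CAF libraries. Erythroid genes were called lower for all 4 measured members, at a summed 0.301 and 0.216 RPKM against 10.7, 40.5 and 33 RPKM. Of 17 hypoxia and glycolysis genes 4 were called higher and 0 lower, and 2 and 2 on the common denominator, where the median went from 0.57 to -0.16. Among the 4 was *Vegfa*, the vascular growth factor, at 182 and 82.5 RPKM against 46.6, 45.5 and 40.7 RPKM, with differences of 1.45 and 0.71 on the 2 scales. The unfolded protein response list had 3 of 10 called higher and 0 lower, but 0 and 1 on the common denominator, where the median went from 0.09 to -0.54. One of the 3 was *Hspa5*, the chaperone of the endoplasmic reticulum, at 500 and 435 RPKM against 148, 217 and 211 RPKM, with differences of 1.3 and 0.55. Targets of NRF2 had 1 of 8 called higher and 0 lower, and 0 and 1 on the common denominator. The gene called higher was *Txnrd1*, the thioredoxin reductase, at 55.7 and 57.9 RPKM against 29.8, 22.3 and 24.6 RPKM, with differences of 1.13 and 0.40. Shares called higher in the hypoxia, unfolded protein response and NRF2 lists were 23.5%, 30% and 12.5%, where that of all genes was 20.4%.

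Oxidative phosphorylation genes had 13 of 75 called higher and 2 lower, and 3 and 4 on the common denominator. Proteasome subunits had 8 of 37 called higher and 0 lower, and 2 and 0 on the common denominator. Type I interferon genes had 1 of 12 called higher and 0 lower, and 0 and 0 on the common denominator. Beside the 20.4% of all genes called higher, the shares of these 3 lists were 17.3%, 21.6% and 8.33%. Mesothelial genes had 1 of 4 called higher and 1 lower, and 0 and 1 on the common denominator, and squamous genes 1 of 9 and 0, and 0 and 1 there. Adipocyte genes had 0 of 5 called higher and 2 lower, Schwann cell genes 0 of 2 and 1, and of the acinar genes 1 was measured and 0 were called.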

How the data were processed

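The samples were 2 libraries of FAP+ CAFs and 3 whole tumors of Pan02, with the libraries of EO771, LL2 and MC38 as reference. Poly(A) RNA was made into unstranded libraries. The authors aligned reads to mm10 with STAR 2.5.0c and counted them over RefSeq exons with HOMER, and the submitters' processing notes also name DESeq2. The tumor table that the authors deposited holds expected counts of each transcript, raw and in steps of 0.5, and 38.2% of its values are not whole. The CAF table that the authors deposited holds RPKM with 3 decimals. The 5 columns of CT26 samples were not analysed here, and 2 of 40458 transcripts name no gene and were left out.

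Tumor counts were divided by transcript length in units of 1000 bases and by the column sum to give RPKM. Transcripts were matched by ID, and each of 24940 symbols took the transcript whose mean count over the 3 Pan02 tumors was largest. Whole reads were recovered from the CAF RPKM values, 100% of low values within 0.1 read of a whole number, with denominators of 18500000 to 45700000 reads over all CAF libraries and 19000000 to 41400000 in tumors. The sum of recovered reads over transcripts was 1.28 to 1.70 times this denominator in CAFs and 1 time in tumors, so levels set across the tables rest on tables that were normalized separately. The common denominator divides CAF reads by their own sum instead.

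The direct comparison had no test and took genes that reached 1 RPKM in at least 2 of the 5 Pan02 libraries. Genes that reached it in at least 2 of 20 libraries were fitted with limma 3.58.1 on log2(RPKM + 1), with a variance trend, 1 term per group of model and sample type, and Benjamini-Hochberg adjustment. A contrast was called at an adjusted p under 0.05 and at least 1 either way. On the log2(RPKM + 1) scale the change of low genes is understated. The study states DESeq2 for counts. Because CAF values are RPKM, limma was the test, and edgeR 4.0.16 and DESeq2 1.42.0 on recovered reads were alternatives. Python 3.11.15 with pandas 2.3.3, numpy 2.4.6, matplotlib 3.10.9 and scipy 1.17.1 served for the rest, and the fits ran in R 4.3.3.

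Tested on simulated data with 200 of the genes changed by 2 on the log2 scale, limma recovered 189 of them with 27 false calls among 15068 genes where gaps were equal as log2(RPKM + 1), and edgeR 198 with 864 among 16768. Where gaps were equal as folds, limma recovered 185 with 377 false calls among 15246 genes and edgeR 187 with 10 among 16935. Replicates of one group differed by more than counting noise, with a chi-square of 60.5 to 133 per degree of freedom, so no library was a copy of another.

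Genes named are the 3 markers, *Xist* and 4 Y-linked genes, the 12 genes with the largest differences either way among those called with a mean of at least 10 RPKM in the higher group, the 6 genes with the largest contrasts either way that were also called in Pan02, and from each of 37 lists the members with the highest level or largest difference and its defining markers. Further genes were named after their values were seen. The members and lists were chosen with earlier results of these data known. Leaving out single Pan02 libraries for the counts over lists, and other scalings for them, were added after seeing the data. Promoters are RefSeq's, GRCm38.p6. Deposited counts and RPKM give no molecule identifiers, so reads are not independent molecules. Some genes are not reported here.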

Additional observations from a re-analysis of the deposited data

Results flagged for a closer look

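The gap between CAFs and tumors in Pan02 differed from the mean gap of EO771, LL2 and MC38 in 754 genes that were larger and 949 that were smaller, by a limma test of the difference itself. The named genes among them are given here with their contrasts on the log2 scale, whose errors and adjusted p stand above.

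Among fibroblast, matrix and pericyte genes the contrast was -2.24 for *Fap*, -1.01 for *Pdgfrb*, -3.62 for *Thy1*, -4.02 for *Col1a1*, -4.05 for *Col1a2*, -3.41 for *Col3a1*, -4.19 for *Postn* and -3.96 for *Tagln*. It was -4.29 for *Mmp2*, -3.15 for *Mmp13*, -3.70 for *Loxl2*, -4.36 for *Cpxm1*, -4.32 for *Mfap4*, -5.51 for *Saa3*, -3.20 for *Rgs5* and -4.64 for *Ndufa4l2*, against 1.92 for *Col28a1*.

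Among endothelial and leukocyte genes it was -1.37 for *Pecam1*, -1.44 for *Cdh5*, -1.88 for *Plvap*, -1.25 for *Csf1r*, -4.78 for *Retnla*, -4.54 for *Mcpt2*, -2.58 for *Tpsb2*, -2.31 for *Apoe* and -3.83 for *Ccl8*, while the MHC class II genes *Cd74* and *H2-Aa* had 3.66 and 3.14.

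Among epithelial genes it was 1.97 for *Tspan8*, 1.71 for *Sox9*, 1.25 for *Ehf*, 1.01 for *Pdx1*, 1.07 for *Onecut2*, 1.06 for *Cdx2* and -1.71 for *Krt19*, and *Xist* had -1.65.

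Among genes of growth, sterols, stress and signaling it was 1.01 for *Mki67*, 1.64 for *Top2a*, 1.68 for *Rrm2*, 1.32 for *Ccnb1*, 1.48 for *Hmgcs1*, 1.77 for *Cyp51*, 1.62 for *Sqle*, 2.05 for *Dnajb1* and 1.78 for *Hsph1*. It was 4.09 for *Cxcl2*, 3.32 for *Arc*, 2.68 for *Cxcl3*, 2.48 for *Ptn*, 2.47 for *Angpt1*, 2.33 for *Dusp5* and 1.66 for *Lif*. No explanation of these differences was tested.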

How the results depend on the processing

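Both the scaling and the call rule moved the direct comparison. Genes called higher numbered 2576 on the deposited scale, 354 on the common denominator, 733 as TPM and 375 by a median of ratios, and genes called lower 775, 1121, 1308 and 1211. A filter of 5 RPKM gave 409 lower, no overlap alone gave 9078 higher and 1179 lower, and a difference of at least 2 gave 220 and 322. Without any single Pan02 library the counts were 2186 to 3067 higher and 719 to 906 lower.

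Against the other models, 754 contrasts were positive and 949 negative. Positive ones numbered 355 on the common denominator, 1351 as TPM and 305 by a median of ratios, and 388 without MC38. A pseudocount of 0.1 gave 1260 positive and 1456 negative, and no minimum difference 4240 and 1939. Negative ones numbered 2119 with edgeR and 2352 with DESeq2 on recovered reads. Without any single library the counts were 562 to 1018 positive and 675 to 1167 negative.

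Contrasts changed sign for *Tpsb2* (1.95 with edgeR and 1.72 with DESeq2), *Ehf* (-0.49 and -0.63), *Pdx1* (-0.14 and -0.18) and *Col28a1* (-1.02 and -1.05). Of the values of single genes under other settings that kept their sign, 688 kept an adjusted p under 0.05 and 31 lost it. With a library left out these numbered 1005 and 35. Another 8 values under other settings changed sign, and of these only *Col28a1* with DESeq2 had an adjusted p under 0.05. These counts leave aside the minimum difference of 1 that a call also needs. The cause was not tested.

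With the replicate number as a block, 756 contrasts were positive and 956 negative. No named gene with a called contrast lost its adjusted p under 0.05 there. Same-numbered Pan02 CAF libraries and tumors had deviations correlated at -0.0901 and -0.222. With 2 CAF libraries the deviations mirror each other, so these values cannot show whether the numbers pair the samples. With 2 CAF libraries, spread between sorts is poorly known. Genes near 1 RPKM rest on few reads, and their log2(RPKM + 1) differences are compressed.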
